A study of Mus musculus with 9 samples.

Results

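The interferon-inducible GTPases described here are 10 genes of 2 families, taken by symbol from the deposited gene counts. They are the guanylate-binding proteins (GBP) Gbp2, Gbp3, Gbp5, Gbp6 and Gbp7, and the immunity-related GTPases (IRG) Irgm1, Irgm2, Igtp, Iigp1 and Ifi47. All 10 were found among the 55291 gene symbols of each library. RNA came from mouse acute myeloid leukaemia (AML) cells that carry Trp53(R172H/delta), that is, the R172H missense allele of the tumour suppressor gene over a deleted one, and all groups share it. The groups are cells grown in culture, cells from the bone marrow of wild-type recipients (below, marrow) and cells from recipients' lungs, each with 3 libraries. The sources used here do not give the age, strain and number of the mice, the way leukaemia cells were separated from host cells or the origin of each culture. The p-values thus measure only the spread between these libraries, which may be technical.

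GBP and IRG proteins are GTPases of cell-autonomous immunity, made in large amounts when interferon gamma, and to a lesser degree type I interferon, acts on a cell. Interferon gamma signals through its receptor and the kinases JAK1 and JAK2 to GAS elements in target promoters, while type I interferon complexes and the factor IRF1 bind ISRE elements. The IRG family has regulators, the IRGM proteins (Irgm1, Irgm2 and Igtp, which is also called Irgm3), that sit on the cell's own membranes and keep the effector proteins inactive there. The effectors, among them Iigp1 (Irga6) and Ifi47 (Irgd), coat and break the vacuoles of intracellular pathogens, and GBPs follow them to vacuoles and bacterial surfaces and feed inflammasomes. In haematopoietic cells Irgm1 is known for its part in keeping stem cells quiescent under interferon.

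Promoter sequence is shown because interferons are known to act through such motifs. RefSeq windows of 250 bases upstream of a transcription start (GRCm38.p6) were at hand for 8 members, not for Gbp6 and Iigp1. An ISRE-like match, GAAA followed by any 2 bases and GAAA on either strand, occurred in 7 of these 8 genes, Ifi47 being the one without, and in 3.46% of the 27025 genes with a window. A GAS-like match, TTCNNNGAA, which reads alike on both strands, occurred in Gbp5, Gbp7, Igtp and Irgm2 (4 of 8), and in 8.13% of all genes. A match is a description of letters and does not show that a factor binds there. Some RefSeq starts differ from those of the GENCODE M21 annotation. The Irgm1 window lies wholly in GENCODE exons (250 bases). Those of Gbp2, Gbp5 and Gbp3 (its first window) hold 61, 34 and 18 exon bases. For Gbp7 and Irgm2 the first 30 transcribed bases after the window do not occur in the gene's GENCODE transcripts. Below, 30 bases around the first ISRE-like match are given on the gene's strand, with ISRE-like and GAS-like matches in capitals.
Gbp2: aggaactcttttagTTTCACTTTCactgtc
Gbp3: atgtcaggacacagTTTCAGTTTCTATTTC
Gbp5: ctgaacttgtgtagTTTCAATTTCagttta
Gbp7: gcctgtgtgtgcagTTTCAGTTTCagttct
Irgm1: ctagcctgtttcaaGAAATAGAAACCGAAA
Irgm2: catTTCCAGGAActGAAACTGAAAgctgtt
Igtp: catTTCTAGGAActGAAACTGAAAgctgtt
In Gbp3 and Irgm1, 2 overlapping ISRE-like matches run together. On the gene's strand the match read TTTC to TTTC in the 4 GBP genes and GAAA to GAAA in the 3 IRGM genes. In Igtp and Irgm2 a GAS-like match lies directly before the ISRE-like one, and their stretches differ at 1 of 30 bases. The near-identical family genes Tgtp1 and Tgtp2, which are IRG effectors outside the 10 members, hold the same arrangement. Of 8 other family genes with a window, 4 had an ISRE-like match, and 9930111J21Rik1, 9930111J21Rik2, Gm5431 and Irgq had none.
Tgtp1: catTTCCAGGAAtcGAAACTGAAAcctacc
Tgtp2: catTTCCAGGAAtcGAAACCGAAAcctact
The stretches lie at chr3:142620590-142620619 (Gbp2), chr3:142559985-142560014 (Gbp3), chr3:142496755-142496784 (Gbp5) and chr3:142530269-142530298 (Gbp7), all on the plus strand. Those of the IRG genes lie at chr11:48871435-48871464 (Irgm1, minus strand), chr11:58214899-58214928 (Irgm2, plus), chr11:58199508-58199537 (Igtp, plus), chr11:48992308-48992337 (Tgtp1, minus) and chr11:49064267-49064296 (Tgtp2, minus).

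The whole upstream windows of Gbp7 and Igtp follow, as the most abundant GBP and an IRGM gene whose windows hold both motifs and no annotated exon. Gbp7 is at chr3:142530086-142530335 and Igtp at chr11:58199306-58199555, both on the plus strand and ending at the base before the start.
Gbp7: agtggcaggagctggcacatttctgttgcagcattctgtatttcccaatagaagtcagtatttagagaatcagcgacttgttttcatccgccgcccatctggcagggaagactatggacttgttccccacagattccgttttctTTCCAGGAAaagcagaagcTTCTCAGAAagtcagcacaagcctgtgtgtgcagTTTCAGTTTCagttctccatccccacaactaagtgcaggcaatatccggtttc
Igtp: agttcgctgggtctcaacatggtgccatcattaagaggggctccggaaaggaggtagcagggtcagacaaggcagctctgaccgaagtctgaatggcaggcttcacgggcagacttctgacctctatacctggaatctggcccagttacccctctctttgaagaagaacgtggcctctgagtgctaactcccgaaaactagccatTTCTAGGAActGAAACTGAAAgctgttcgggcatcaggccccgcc

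**Figure D1:**
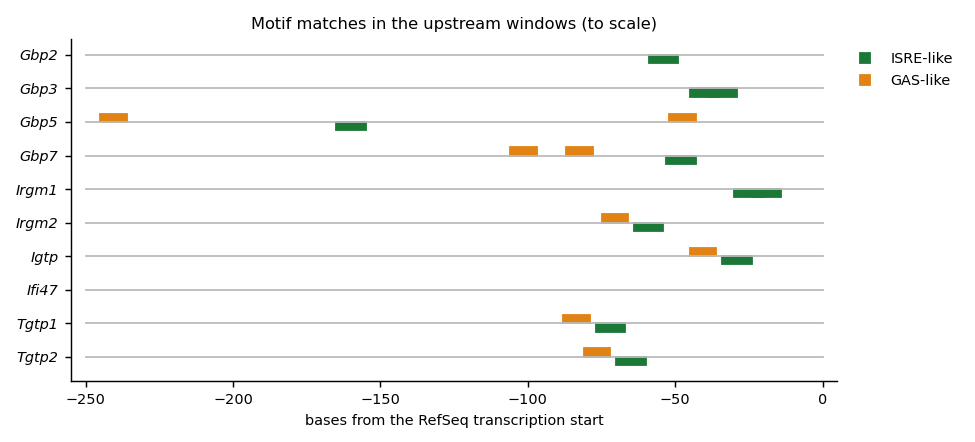
Position of ISRE-like (green) and GAS-like (orange) matches in the 250 bases before the RefSeq transcription start of 8 members and of Tgtp1 and Tgtp2, drawn to scale (x axis: bases from the start). The ISRE-like match begins 53 bases before the start in Gbp7 and 34 bases before it in Igtp, and Ifi47 shows neither motif.

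Depth ran from 27485111 to 38761363 counted reads a library. CPM are the reads of a gene scaled to a common library total. With the adjusted totals described next, 1 read stood for 0.0249 to 0.0371 CPM. Library totals were adjusted by TMM factors, and a gene was called changed at an adjusted p under 0.05 in edgeR's quasi-likelihood test over the 15066 genes that passed a filter on low counts. The cells carried the erythroid factors Gata1 (318 to 382 CPM as group means) and Klf1 (289 to 306 CPM) and the progenitor receptor Kit (631 to 1167 CPM). The myeloid marker Mpo ranged from 0 to 0.0742 CPM in culture, from 11 to 58.1 CPM in marrow and from 0.158 to 2.25 CPM in lung. The leukocyte antigen Ptprc ranged from 1.31 to 2.03, from 1.79 to 17.2 and from 5.71 to 9.35 CPM. Trp53 itself was at 295, 320 and 340 CPM and was called in no comparison. Bone marrow replicate 3 stood apart in markers of other blood cells, which are given with the results they touch.

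The GBP genes lie in clusters. On GRCm38, Gbp5 spans bases 142493978 to 142522344 of chromosome 3, followed on the same strand by Gbp7 (142530342 to 142550149), Gbp3 (142560026 to 142573209) and Gbp2 (142620602 to 142638008), and Gbp6 lies on chromosome 5 (105270702 to 105293698). Of the IRG genes, Irgm1 (48861968 to 48871683), Ifi47 (49076587 to 49096974), Igtp (58199556 to 58207591) and Irgm2 (58199618 to 58222782) are on chromosome 11. Igtp and Irgm2 share 162 bases of annotated exon on the same strand, so some reads cannot be assigned to 1 of them. Of the distinct 50-base words in Gbp6 transcripts, 70.7% also occur in transcripts of other genes, which leaves its counts uncertain. In the other 9 members that share was between 0.4% and 12.7%. Ifi47 shares 111 bases of exon with Olfr56 on its own strand (135 reads). The files' name marks the counting as not strand-specific, and Ifi47 overlaps the opposite-strand gene Gm12188 over 106 bases (2560 reads on Ifi47 against 38 on Gm12188 over all libraries).

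Cultured cells carried RNA of 9 of the 10 members. To compare genes, levels were divided by annotated exon length. Gbp7 was highest at 7.38 ± 0.128 CPM per kb (SD, n = 3), followed by Irgm1 at 5.20 ± 0.115, Igtp at 3.70 ± 0.251 and Ifi47 at 2.45 ± 0.193 CPM per kb, each apart from the next in every library. Gbp5 and Irgm2 overlapped at 1.33 ± 0.140 and 1.27 ± 0.151 CPM per kb. Gbp3 was at 0.769 ± 0.142 and Gbp2 at 0.397 ± 0.111 CPM per kb. Iigp1 had 4 reads and Gbp6 none in the 3 culture libraries together, where 3 reads of the group's total correspond to 0.0342 CPM. These limits and the intervals below cover counting error only, since amplified reads are not independent molecules.

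The order changed in the tissues. Irgm1 was the most abundant member per kb in marrow (9.26 ± 1.46 CPM per kb) and in lung (13.2 ± 1.53 CPM per kb). Gbp7 came after Igtp in both, at 5.29 ± 0.216 and 8.50 ± 0.166 CPM per kb, where Igtp was at 6.20 ± 0.363 and 9.2 ± 1.77 CPM per kb. Igtp and Gbp7 did not overlap in marrow and overlapped in lung. Gbp5 went from the fifth place in culture to the eighth in both tissues, where it lay below Gbp3 and Gbp2, although Gbp5 and Gbp2 overlapped in marrow.

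**Figure D2:**
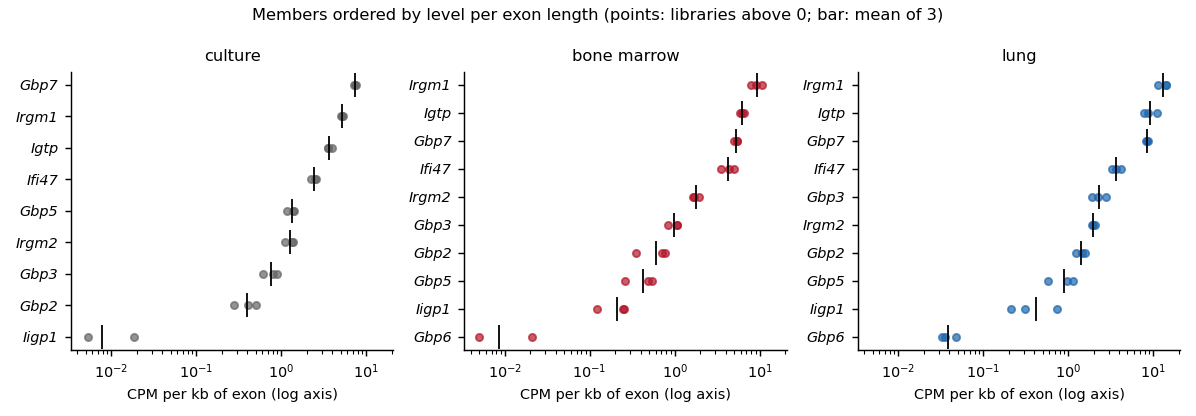
Level of each member per kb of annotated exon (x axis, CPM per kb, log axis) in the 3 groups, ordered by the mean. Points are libraries above 0 and bars are means of 3 libraries. Gbp7 leads in culture at 7.38 CPM per kb and Irgm1 in marrow and lung at 9.26 and 13.2 CPM per kb.

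Cells from marrow had more RNA of all 5 IRG genes than cultured cells and less of the GBP genes Gbp5 and Gbp7. Of the 9 members that passed the filter, 5 were called higher and 2 lower, where 30.7% of all tested genes were called higher and 29.8% lower. The median log2 change was 0.62 over the 9 members and 0.05 over all tested genes. Gbp2 and Gbp3 were not called, and Gbp6 was too low to be tested. The same 5 and 2 members had libraries that did not overlap with culture, as in 34.3% (higher) and 32.9% (lower) of all tested genes. Whether the IRG and GBP families differ from each other was not tested.

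Irgm1, the IRGM regulator linked to autophagy and to mitochondria, was at 29.6, 30.1 and 30.9 CPM in culture replicates 1 to 3, at 62.7, 53.0 and 45.8 CPM in marrow and at 82.0, 66.4 and 81.6 CPM in lung. The 3 groups did not overlap, and the spread was wider in the tissues than in culture. It rose 1.78-fold in marrow against culture (log2 change 0.83 ± 0.12 SE, edgeR adjusted p = 4.5e-05). In lung it rose 2.54-fold against culture (1.35 ± 0.12, edgeR adjusted p = 9e-07) and 1.43-fold against marrow (0.51 ± 0.12, edgeR adjusted p = 0.0073).

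Igtp, the IRGM protein of the endoplasmic reticulum and lipid droplets, followed the same order. It was at 7.23, 7.14 and 8.06 CPM in culture, 13.3, 11.8 and 12.6 CPM in marrow and 17.6, 15.7 and 22.6 CPM in lung, again with no overlap between groups. Igtp rose by a log2 change of 0.75 ± 0.15 in marrow and of 1.31 ± 0.15 in lung against culture (edgeR adjusted p = 0.00066 and 6.9e-06). Lung exceeded marrow 1.48-fold (0.57 ± 0.14, edgeR adjusted p = 0.012). That last call rested on lung replicate 3, the highest library: without it the log2 change was 0.40 with an edgeR adjusted p of 0.056 (range over the alternatives 0.0013 to 0.056).

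Irgm2, an IRGM protein of the Golgi that restrains caspase-11, was at 4.04, 5.05 and 4.97 CPM in culture, 6.07, 6.29 and 7.18 CPM in marrow and 7.18, 7.08 and 7.59 CPM in lung. Both tissues lay above culture, and the tissues overlapped each other. Irgm2 was 1.39-fold higher in marrow than in culture (log2 change 0.47 ± 0.16, edgeR adjusted p = 0.019) and 1.55-fold higher in lung (0.63 ± 0.16, edgeR adjusted p = 0.0039). The marrow call was lost without culture replicate 1 (adjusted p = 0.11), without marrow replicate 3 (0.063) and with no low-count filter (0.053), in a range of 0.0089 to 0.11. Lung against marrow gave 0.16 ± 0.15 (edgeR adjusted p = 0.48).

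The effector Ifi47 was at 6.23, 6.40 and 5.50 CPM in culture, 8.63, 12.4 and 10.7 CPM in marrow and 8.09, 9.04 and 10.3 CPM in lung. Ifi47 was the only tested member whose mean was lower in lung than in marrow, though the tissues overlapped (log2 change -0.21 ± 0.16, edgeR adjusted p = 0.37). Against culture Ifi47 rose 1.74-fold in marrow (0.80 ± 0.16, edgeR adjusted p = 0.00084) and 1.51-fold in lung (0.59 ± 0.16, edgeR adjusted p = 0.0076).

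Iigp1, an effector that coats vacuoles (chromosome 18, 60376027 to 60392634), was nearly absent from culture, with 0, 0.0308 and 0.107 CPM, and present in every tissue library. Bone marrow had 0.714, 1.46 and 1.47 CPM and lung 1.23, 1.79 and 4.37 CPM, the last from lung replicate 3. From 4 reads in culture to 130 in marrow the ratio was 26.8 (95% exact binomial interval 10.2 to 99.9), and to 240 in lung it was 52.3 (20.2 to 194.0). Both rises were called (log2 change 4.62 ± 0.78 and 5.63 ± 0.75, edgeR adjusted p = 0.00025 and 5e-05). The tissues overlapped, and lung against marrow was not called (1.01 ± 0.49, edgeR adjusted p = 0.15). It was called in 2 of 18 alternatives, both in edgeR, in a range of 0.026 to 0.67. These were the fit with no low-count filter (edgeR adjusted p = 0.027) and the replicate block over only the 6 tissue libraries (edgeR adjusted p = 0.026). Without lung replicate 3 the log2 change was 0.31 between the tissues and 4.92 in lung against culture. Without culture replicate 3, which holds most of the culture reads, the changes against culture were 5.89 in marrow and 6.90 in lung.

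**Figure D3:**
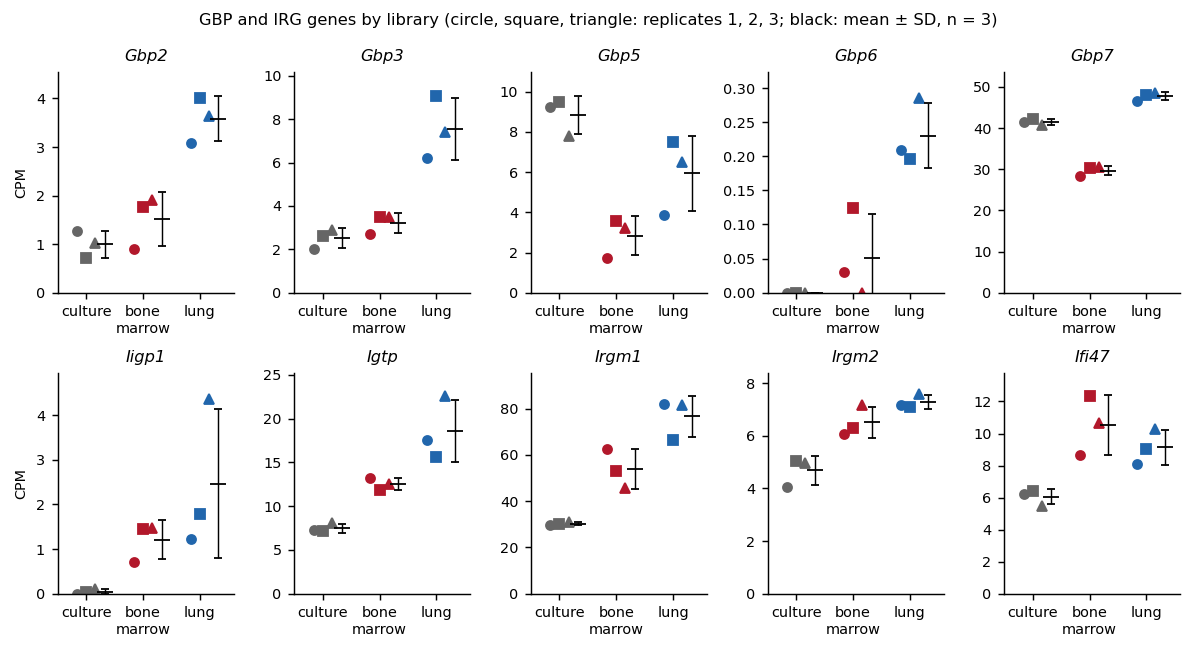
CPM of the 10 members in each of the 9 libraries (y axes from 0, own scale per gene; circle, square and triangle are replicates 1, 2 and 3, black bars mean ± SD of 3 libraries). Irgm1 and Igtp step up from culture to marrow to lung, while Gbp5 falls from a culture mean of 8.84 CPM to 2.83 CPM in marrow.

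In marrow against culture 2 GBP genes were called lower and 2 were not called. Gbp5, a prenylated GBP that promotes assembly of the NLRP3 inflammasome, was at 9.24, 9.51 and 7.78 CPM in culture, 1.73, 3.56 and 3.21 CPM in marrow and 3.88, 7.5 and 6.48 CPM in lung. Every tissue library lay below every culture library, and lung lay above marrow. Gbp5 fell 3.12-fold in marrow against culture (log2 change -1.64 ± 0.28, edgeR adjusted p = 0.00024). It was 2.09-fold higher in lung than in marrow (1.07 ± 0.28, edgeR adjusted p = 0.015), a call lost without lung replicate 2, the highest lung library (0.85, edgeR adjusted p = 0.067, range over the alternatives 1.5e-05 to 0.067).

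For Gbp5 in lung against culture the log2 change was -0.57 ± 0.27 and missed the threshold (edgeR adjusted p = 0.087). It was called lower in 7 of 19 alternatives, among them the fit without lung replicate 2 (-0.80, adjusted p = 0.039), the fit without marrow replicate 1 (-0.58, 0.037) and the replicate block (-0.63, 0.019), in a range of 0.013 to 0.29.

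Gbp7, which helps to assemble the phagocyte NADPH oxidase, had the lowest ratio of SD to mean among members in each group. It was at 41.5, 42.1 and 40.7 CPM in culture, 28.3, 30.3 and 30.5 CPM in marrow and 46.7, 48.0 and 48.5 CPM in lung, so the 3 groups did not overlap. Gbp7 fell 1.40-fold in marrow against culture (log2 change -0.48 ± 0.08, edgeR adjusted p = 0.00025) and was 1.61-fold higher in lung than in marrow (0.68 ± 0.08, edgeR adjusted p = 0.00014). Lung against culture gave 0.20 ± 0.08 (edgeR adjusted p = 0.055), called in 9 of 19 alternatives (range 0.019 to 0.19), among them the fit without marrow replicate 1 (0.20, adjusted p = 0.039).

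Gbp2, a prenylated GBP that goes to pathogen vacuoles, was at 1.26, 0.708 and 1.03 CPM in culture, 0.892, 1.77 and 1.91 CPM in marrow and 3.09, 4.01 and 3.64 CPM in lung. Culture and marrow overlapped, and lung lay above both. Gbp2 rose 3.59-fold in lung against culture (log2 change 1.84 ± 0.32, edgeR adjusted p = 0.00026) and 2.34-fold against marrow (1.23 ± 0.30, edgeR adjusted p = 0.011). Bone marrow against culture was not called (0.62 ± 0.32, edgeR adjusted p = 0.11), except without marrow replicate 1, the lowest of its group (0.89, adjusted p = 0.019, range over the alternatives 0.019 to 0.36).

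Gbp3, a close neighbour of Gbp2 in the chromosome 3 cluster, showed the same arrangement of groups. It was at 2.0, 2.62 and 2.91 CPM in culture, 2.71, 3.47 and 3.48 CPM in marrow and 6.21, 9.07 and 7.40 CPM in lung. Gbp3 rose 3-fold in lung against culture (log2 change 1.59 ± 0.22, edgeR adjusted p = 3.4e-05) and 2.34-fold against marrow (1.23 ± 0.21, edgeR adjusted p = 0.0014). Bone marrow against culture gave 0.36 ± 0.22 (edgeR adjusted p = 0.17).

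Gbp6, from the chromosome 5 cluster, did not pass the filter and was not in the fit that gave the other members' p-values. With no filter its edgeR adjusted p was 0.00043 in lung against culture, 0.11 in lung against marrow and 0.092 in marrow against culture. It had 0 reads in culture, 1, 4 and 0 reads in marrow replicates 1 to 3 and 8, 6 and 9 reads in the lung replicates, or 0.210, 0.196 and 0.285 CPM in lung. Lung exceeded marrow by a ratio of 4.86 (95% exact binomial interval 1.81 to 16.4). Against a floor of 3 reads over the culture group it was at least 6.69-fold higher in lung.

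Against culture, lung cells had more RNA of the 5 IRG genes and of Gbp2 and Gbp3, and 7 of 9 tested members were called higher and 0 lower in edgeR. Of all tested genes 27.9% were called higher and 27% lower. By DESeq2, which held all 10 members and not only the 9 of edgeR, 9 were called higher, Gbp6 among them, and 0 lower. At an unadjusted p under 0.05 in edgeR's quasi-likelihood test, 8 were higher, Gbp7 included, and 0 lower. The share of all genes called by DESeq2 or at an unadjusted p was not counted, so these counts have no background. In 8 members every lung library lay above every culture library and in 1, Gbp5, below it, as in 34% and 32.9% of all tested genes. The median log2 change was 1.31 over the 9 members and 0.02 over all tested genes. Both comparisons with culture share the same 3 culture libraries, so their values are not independent.

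Against marrow, cells from lung had more RNA of the 4 tested GBP genes and of Irgm1 and Igtp. These 6 of 9 tested members were called higher and 0 lower, where 14.2% of all tested genes were called higher and 11.1% lower. DESeq2, which held all 10 members but gave Gbp6 no adjusted p here, also called 6 higher and 0 lower. At an unadjusted p under 0.05 edgeR gave 6 higher and 0 lower. The share of all genes was not counted for either. The libraries of the 2 tissues did not overlap in the same 6 members, all higher, as in 18.5% of tested genes (18.1% lower). The median log2 change was 0.68 over the 9 members, 1.15 over the 4 GBP and 0.51 over the 5 IRG genes, beside -0.01 over all tested genes. Iigp1, Irgm2 and Ifi47 were not called.

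**Figure D4:**
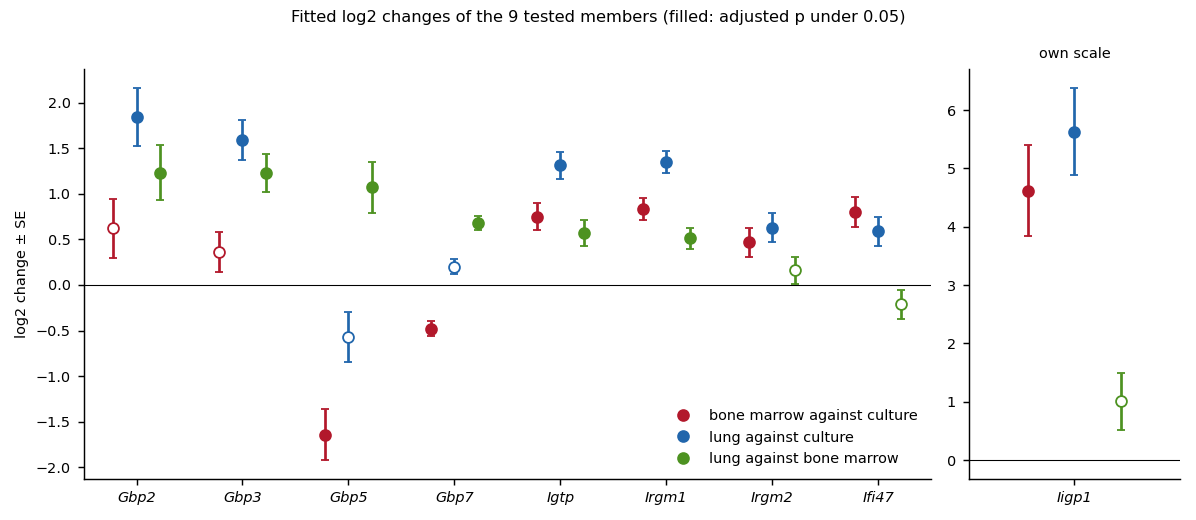
Fitted log2 change ± SE of the 9 tested members in the 3 comparisons (filled points: adjusted p under 0.05 in edgeR's quasi-likelihood test; Iigp1 on its own scale). In marrow against culture Gbp5 and Gbp7 lie below 0 at -1.64 and -0.48, while the IRG genes lie between 0.47 and 4.62.

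Other genes of the 2 families were read from a list of 18, of which 10 were tested and 6 reached 1 CPM in a group. The T-cell-specific GTPases Tgtp1 and Tgtp2, IRG effectors of the Irgb6 type, have 81.2% and 86.6% of their 50-base words in common with other genes, mostly each other, so reads may be split between them. Tgtp2 was at 2.97, 2.68 and 2.84 CPM in culture, 14.8, 18.7 and 19.2 CPM in marrow and 35.9, 31.5 and 40.3 CPM in lung. It rose 6.22-fold in marrow and 12.7-fold in lung against culture and 2.04-fold between the tissues (edgeR adjusted p = 9.7e-09, 1.2e-09 and 0.00016). Tgtp1 rose from 0.0952 ± 0.0596 CPM to 2.29 ± 0.849 and 3.61 ± 1.18 CPM (log2 change 4.59 ± 0.49 and 5.24 ± 0.48 against culture), and lung against marrow gave 0.65 ± 0.33 (edgeR adjusted p = 0.17).

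Gbp9 had 2 reads in culture, 52 in marrow and 111 in lung, a ratio to culture of 21.5 (95% exact binomial interval 5.65 to 182.0) and of 48.4 (13.1 to 405.0). Its marrow replicates 1 to 3 had 2, 14 and 36 reads and its lung replicates 64, 17 and 30. These intervals leave out that spread between libraries. Gm4841, an IRG relative, went from 4 reads to 84 and 118. The transcript 9930111J21Rik2, whose 50-base words are shared to 59.8%, rose from 0.792 CPM to 1.63 and 3.31 CPM. The distant relative Irgq, which lacks GTPase activity, went the other way, from 16.7 ± 2.98 CPM in culture to 7.04 ± 1.45 CPM in marrow (log2 change -1.24 ± 0.17, edgeR adjusted p = 3.5e-05) and 12.5 ± 1.07 CPM in lung. In all, 8 of the 10 tested genes were called higher and 1 lower in marrow against culture, 9 and 0 in lung against culture, and 3 and 0 in lung against marrow (median log2 change 3.77, 4.15 and 1.02). With the 2 genes at 0 in culture set to their bound, the first 2 medians were 3.15 and 4.0. Over all tested genes, 30.7% were called higher and 29.8% lower in marrow against culture. The shares were 27.9% and 27% in lung against culture and 14.2% and 11.1% in lung against marrow. They are the background for the counts of every list below as well.

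Ligand RNA was close to absent. Ifng, the gene of interferon gamma, had 0 reads in culture and in marrow and 1 read in each lung library, where 3 reads of a group correspond to 0.0342, 0.0283 and 0.0299 CPM in culture, marrow and lung. Ifnb1 had 1 read in lung and 0 elsewhere, and Ifna1, Ifna2, Ifna4, Ifnl2 and Ifnl3 had none in any library. Both chains of the interferon gamma receptor were abundant. Ifngr1 was at 485 ± 16.8 CPM in culture, 648 ± 89.4 in marrow and 615 ± 39.6 in lung, and was higher than culture in both tissues (log2 change 0.42 ± 0.10 and 0.34 ± 0.10, edgeR adjusted p = 0.002 and 0.008). Ifngr2 was at 66.2 ± 4.20, 74.0 ± 3.53 and 75.9 ± 2.22 CPM and was called in no comparison. The type I receptor genes Ifnar1 and Ifnar2 were lower than culture in marrow (-0.50 ± 0.09 and -0.60 ± 0.09) and in lung (-0.28 ± 0.09 and -0.63 ± 0.09). Ifnlr1, of the type III receptor, rose from 3.60 to 14.3 CPM in marrow and was lower in lung at 9.66 CPM. Of the 6 tested ligand and receptor genes, 2 were higher and 3 lower in marrow and in lung against culture, and 0 and 1 between the tissues, where the median log2 change was -0.05.

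Downstream of the receptors, Irf1, which drives GBP transcription, was at 5.11 ± 1.22 CPM in culture, 8.32 ± 1.19 in marrow and 20.8 ± 7.35 in lung. It was called higher in marrow and in lung than in culture and in lung than in marrow (log2 change 0.70 ± 0.24, 2.02 ± 0.24 and 1.32 ± 0.24). Irf7 rose from 4.09 to 21.6 and 39.5 CPM. Irf9, of the type I complex, rose 1.07 ± 0.13 in marrow on the log2 scale, while the kinase genes Jak2 (-0.62 ± 0.16) and Tyk2 (-0.67 ± 0.09) and the repressor Irf2 (-0.78 ± 0.09) fell. Of the 12 genes on the list of signalling kinases and transcription factors, 5 were higher and 5 lower in marrow against culture, 6 and 3 in lung against culture, and 5 and 0 in lung against marrow (median 0.16, 0.31 and 0.28).

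The inhibitor Socs1, which blocks JAK kinases, rose from 7.89 to 23.2 CPM in marrow and 48.2 CPM in lung (log2 change 1.56 ± 0.14, 2.61 ± 0.14 and, between the tissues, 1.05 ± 0.13). Usp18, a brake on the type I receptor, rose from 0.691 CPM in culture to 9.43 and 17.0 CPM. The phosphatase Ptpn2 and the signalling inhibitor Pias1 were lower in marrow than in culture (-0.55 ± 0.09 and -0.79 ± 0.09). Cish fell from 35.8 CPM in culture to 17.6 CPM in marrow and was highest in lung at 51.7 CPM. Of 9 inhibitor genes, 3 were higher and 5 lower in marrow, 5 and 2 in lung against culture, and 6 and 0 between the tissues (median -0.32, 0.36 and 0.37).

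Of 20 other genes that interferon gamma induces, 16 were tested. In marrow 12 were higher and 1 lower than in culture, in lung 15 and 0, and between the tissues 7 and 1 (median log2 change 0.92, 1.21 and 0.50). The immunoproteasome gene Psmb10 rose from 26.0 to 127 CPM in marrow and 118 CPM in lung, and Psmb9 was lower in lung than in marrow (42.6 against 56.6 CPM, -0.41 ± 0.11). Parp14 rose stepwise from 6.81 to 16.8 and 31.2 CPM. Of the type I interferon list 19 of 22 genes were tested, with 14 higher and 1 lower in marrow, 16 and 1 in lung against culture, and 6 and 0 between the tissues (median 2.01, 3.12 and 0.61). Its nucleotide kinase Cmpk2 rose from 1.33 to 29.3 and 36.9 CPM, and Ifit2 fell from 44.9 to 27.8 and 20.9 CPM.

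The partners of the GTPases did not move as a block. ATG8-family proteins and the enzymes that attach them to lipid guide IRG and GBP proteins to membranes. Of 13 such genes, 5 were higher and 6 lower in marrow against culture, 3 and 5 in lung against culture, and 2 and 2 between the tissues (median -0.08, -0.02 and 0.10). Among all tested genes the shares were 30.7% and 29.8%, 27.9% and 27%, and 14.2% and 11.1% in the same order. Gabarapl2, the ATG8 protein that works with Irgm2, was at 25.1 CPM in culture, 37.8 in marrow and 29.1 in lung, higher in marrow than in culture (0.59 ± 0.11) and lower in lung than in marrow (-0.38 ± 0.10). Atg16l1 rose in both tissues against culture (0.34 ± 0.10 and 0.44 ± 0.10), whereas Atg7 (-0.68 ± 0.11 and -0.39 ± 0.11) and the kinase gene Ulk1 (-1.10 ± 0.11 and -1.05 ± 0.11) fell.

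Of 12 inflammasome and pyroptosis genes 9 were tested, with 5 higher and 3 lower in marrow, 3 and 1 in lung against culture, and 2 and 1 between the tissues (median 0.33, 0.38 and 0.28). The adaptor Pycard was at 38.1, 47.9 and 30.2 CPM in culture, marrow and lung, and lower in lung than in marrow (-0.67 ± 0.13). Casp4, the gene of caspase-11, lies outside the naming rule and was chosen after its values were seen: it was at 1.19 ± 0.253, 0.311 ± 0.252 and 2.07 ± 0.814 CPM, lower in marrow than in culture (-1.88 ± 0.49, edgeR adjusted p = 0.0046) and higher in lung than in marrow (2.67 ± 0.48, edgeR adjusted p = 0.0019). Of the 8 enzymes of protein prenylation, which anchors Gbp2 and Gbp5 in membranes, 4 were higher and 2 lower in marrow, 5 and 1 in lung against culture, and 2 and 0 between the tissues (median 0.21, 0.31 and 0.07). Fntb, the beta subunit of farnesyltransferase, fell from 18.1 to 8.73 and 8.59 CPM. Beside the counts of both lists, 30.7% of all tested genes were higher and 29.8% lower in marrow. The shares were 27.9% and 27% in lung against culture and 14.2% and 11.1% between the tissues.

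Summed markers of T and NK cells, of monocytes and dendritic cells, of macrophages and of neutrophils were higher in every tissue library than in culture. Not every single marker was, and the B cell sum was lower, as given below. Summed over 12 markers of T and NK cells, culture libraries had 0.308 to 0.497 CPM, marrow 1.46 to 4.47 CPM and lung 4.72 to 5.66 CPM. Prf1 and Nkg7 were the most abundant of them, and Cd3e, Cd4, Cd8a, Trbc2, Ncr1 and Il7r were at 0 in culture. Of the 5 tested T and NK genes, 3 were higher in marrow and 5 in lung than in culture, and 2 were higher in lung than in marrow. The 12 monocyte and dendritic cell markers were led by Cd74 and Ly6c2. They summed to 2.15 to 2.66 CPM in culture, 8.03 to 46.3 CPM in marrow and 19.9 to 43.1 CPM in lung. Clec9a, Siglech and H2-Ab1 were at 0 in culture. Of 7 tested, 5 were higher in marrow and 6 in lung than in culture, and none was lower. In lung against marrow 2 were higher and 1 was lower.

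The 12 macrophage markers were led by Mrc1 in culture, Vcam1 in marrow and Csf1r in lung. They summed to 3.90 to 4.31 CPM in culture, 19.1 to 27 CPM in marrow and 14.1 to 24.7 CPM in lung. C1qa, C1qc and Marco were at 0 in culture and Marco was at 0 in marrow. Csf1r held 44.2% of the lung sum, and the single markers moved otherwise than the sum. Of 9 tested, 8 were higher and 0 lower in marrow against culture, and 8 and 1 in lung against culture. In lung against marrow 1 was higher and 4 were lower (median log2 change -0.75). The 12 neutrophil markers, led by Ngp and S100a8, summed to 1.31 to 2.62 CPM, 326.5 to 2052 CPM and 12.5 to 87.3 CPM. All 12 were tested, and 12 were called higher in marrow than in culture but only 1 in lung. In lung against marrow 0 were higher and 10 lower. Bone marrow replicate 3 had the highest sum of its group on these 4 lists. Among the 9 tested members it was the highest of its group for Gbp2, Gbp3, Gbp7, Iigp1 and Irgm2 and not for Irgm1, Igtp, Gbp5 and Ifi47. Its margin over marrow replicate 2 was small for Gbp3 (3.48 against 3.47 CPM), Gbp7 (30.5 against 30.3 CPM) and Iigp1 (1.47 against 1.46 CPM). The share of all genes highest in this library was not counted. Without marrow replicate 3, the calls in marrow against culture were 4 members higher and 2 lower, Irgm2 being lost. In lung against marrow they were 6 higher and 0 lower. In bulk RNA, more cells of a type and more RNA per cell cannot be told apart. The part of these cells in the members' changes was not tested.

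Other tissue cells were read in the same way. Endothelium markers (12, led by Calcrl and Egfl7) summed to 357 to 400.1 CPM in culture, 262.5 to 290.1 CPM in marrow and 300.2 to 346.4 CPM in lung, and Tie1 and Emcn were at 0 in culture. Calcrl held 51.6% of the culture sum, and the single markers moved otherwise than the sum: of 11 tested, 8 were higher and 0 lower in lung against marrow (median log2 change 3.03), and 9 higher and 1 lower in lung against culture. Tie1 had 0 reads in culture, 4 in marrow and 230 in lung. Lung epithelium markers (12, led by Hopx and Sftpc) summed to 29.3 to 31.6, 11.7 to 27 and 34.9 to 100.1 CPM, with Epcam and Cdh1 among 6 markers at 0 in culture. Hopx held 97.5% of the sum in culture, 96% in marrow and 30.1% in lung. Sftpc, of surfactant-making cells, averaged 0.0787 CPM in culture, 0.0202 in marrow and 18.3 in lung, and 3 of 4 tested epithelium genes were higher in lung than in marrow and 3 of 4 than in culture. The part of these cells in the members' values in lung was not tested. Stroma markers (12, led by Col1a2 and Dcn) summed to 239.1 to 255.8, 142.1 to 213.7 and 183.5 to 269.1 CPM, with Lum, Pdgfra, Cxcl12 and Bgn at 0 in culture. Col1a2 held 87.3% of the culture sum. Of 7 tested stroma genes, 3 were higher and 2 lower in marrow against culture. The counts were 4 and 0 in lung against culture and 2 and 0 in lung against marrow. B cell markers (10, led by Ighm and Igkc) summed to 310.9 to 325.3, 11.1 to 95.6 and 17.6 to 90.9 CPM. Ighm held 99.6% of that sum in culture, where Cd79b, Ms4a1 and Pax5 were at 0. Of 6 tested B cell genes, 3 were higher and 1 lower in marrow against culture. The counts were 2 and 0 in lung against culture and 0 and 0 in lung against marrow.

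**Figure D5:**
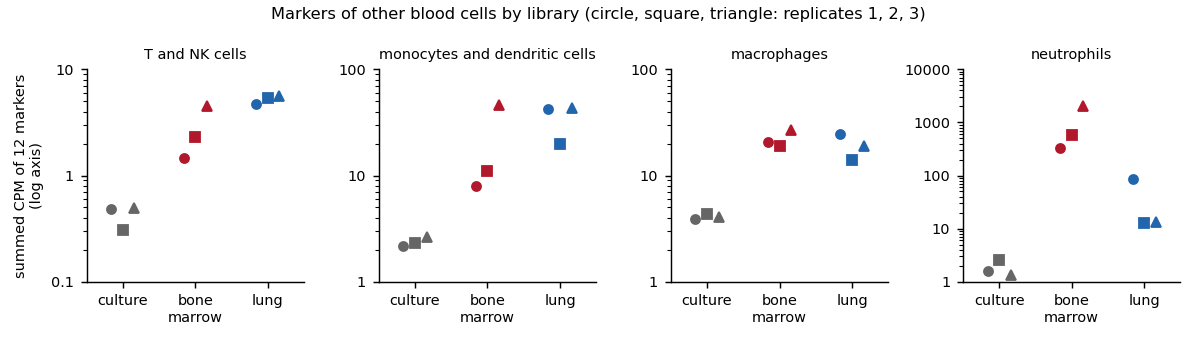
Summed CPM of 12 markers of each of 4 kinds of blood cell in every library (log y axes). Circle, square and triangle are replicates 1, 2 and 3. T and NK markers lie at 0.308 to 0.497 CPM in culture and 4.72 to 5.66 CPM in lung, and neutrophil markers peak at 2052 CPM in marrow replicate 3.

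The genes whose pattern lay nearest to the members' mean were found by the root mean square difference of log2 CPM over the 9 libraries, after centring each gene on its own mean. Among 8905 genes of at least 10 CPM they were Acap3 (difference 0.11 log2 units), Urb1 (0.15), Spata5l1 (0.16), Klf10 (0.17) and Ipo13 (0.17). Acap3 was at 59.5 ± 1.13 CPM in culture, 95.3 ± 14.3 in marrow and 136 ± 17.5 in lung. The members themselves lay at very different distances from their mean pattern. Igtp was nearest at 0.19, with 11 other genes nearer than it, while Gbp5 lay at 1.02 and Iigp1 at 1.56, with 8232 and 8733 genes nearer.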

How the data were processed

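RNA of 9 libraries, grouped by title, went through SMART-seq v4 cDNA amplification and ThruPLEX library preparation, per the labels' protocols. The submitters' processing notes name the tools bcl2fastq and STAR and the build mm10. The sources used here give no versions, no counting tool and no annotation. The authors deposited one table per library with the count of reads for each gene symbol. Of the symbols, 53292 occur in GENCODE M21, with 99.12% of the reads, and coordinates and exon lengths come from it. RefSeq promoter windows are of GRCm38.p6.

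All 9 libraries were fitted in edgeR 4.0.16 (R 4.3.3) with filterByExpr, TMM scaling and a robust quasi-likelihood fit on group, and p-values were adjusted by Benjamini-Hochberg over 15066 genes. Alternatives were other scalings and filters, DESeq2 1.42.0, limma-voom (limma 3.58.1), fits of 6 libraries, a replicate block and leaving out each library. The fit was tested on simulated data. Over the comparisons it recovered 52.2% to 55.2% of 1.5-fold changes, 79.1% to 86.6% of 2-fold changes and 95.5% to 98.5% of 4-fold changes. A gene that was not called may thus still differ by about 1.5-fold. No pair of libraries of a group agreed within sampling noise (chi-square per degree of freedom 3.86 or more).

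The members and gene lists were chosen with earlier results of these data known. Named were all members, family genes of at least 1 CPM, up to 3 called genes per direction of each pathway list at 10 CPM or more (a selection of them is printed) or its most abundant gene, 2 abundant markers for every other cell type, the 5 nearest patterns, and Ifng, Ifngr1, Ifngr2, Irf1, Ptprc and Trp53. Some genes that the rule or lists hold are not reported here.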

Additional observations from a re-analysis of the deposited data

How the results depend on the processing

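Under 19 alternatives, 27 pairs of a tested member and a comparison gave 510 values. None changed direction, 486 kept their side of the threshold, 5 lost the call and 19 gained one, and 20 of the 27 pairs kept theirs throughout. The number of members called lower in lung against culture was 0, and it was 1 (Gbp5) with no low-count filter, with limma-voom, when only the 6 libraries were fitted, and under a replicate block fitted to 9 or to 6 libraries. Leaving out single libraries gave 0 to 1. Leaving out single libraries gave 5 to 6 members higher in lung against bone marrow, 4 to 6 in bone marrow against culture and 7 to 8 in lung against culture. The share of all genes called was not counted for these fits or for those with a replicate block, so their counts have no background. Under each other scaling 6 members were higher in lung against bone marrow, beside 1796 to 2227 of all tested genes (2138 in the main fit). With the replicate block over 9 libraries, lung against culture had 7 members higher and 1 lower, bone marrow against culture 5 and 2, and lung against bone marrow 6 and 0. With the block fitted to only the 6 lung and marrow libraries, 7 members were higher in lung, Iigp1 being added. The fit with no low-count filter also gave 7 higher in lung against bone marrow, of 10 tested, again with Iigp1. Deviations from the group means, compared for equal replicate numbers in marrow and lung, had correlations of 0.03, 0.27 and 0.09 (15066 genes). For unequal numbers they ran from -0.241 to 0.139. Bone marrow replicates 1 and 3 correlated best with a lung library of another number, replicate 1 by a small margin (0.036 against 0.03). With so few libraries these values do not settle whether the numbers pair them, and the main fit used no pairing. At 0.0249 CPM or more for 1 read, Gbp6 and the culture level of Iigp1 rest on few reads.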
